A study of Mus musculus with 7 samples.

Results

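Levels of 40 genes of the DNA damage response and DNA repair were followed in mini-oocytes, the oocyte-like cells that mouse embryonic stem cells form when oocyte transcription factors are forced on. The members were named by function, from sensor kinases to helicases, and each was found by its symbol, 40 of the 55364 genes in the deposited table. None of the 40 was at 0 in any library, and all passed the filter on low values, 1 TPM or more (a read count scaled to gene length and library total) in at least 2 libraries.

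The 7 libraries of total RNA fell into 3 groups. There were 2 libraries from 4F cells at day 7 of induction, 3 from 4F cells at day 21 and 2 from 8F cells at day 21, and each is named below by its replicate number. In 4F cells Nobox, Figla, Tbpl2 and Lhx8 were expressed, and 8F cells carried Stat3, Dynll1, Sub1 and Sohlh1 in addition, each fused to a domain that is degraded unless Shield-1 is in the medium. Both kinds of cell derive from the female BVSC H18 stem cell line of hybrid 129/C57BL6 background, and all were cultured in S10 medium with SCF and the kinase inhibitor Y-27632, with Shield-1 left out of fresh medium from day 12 on. Per the study's methods, day 7 libraries were made from larger pools of cells than day 21 libraries, so day and pool size changed together and cannot be told apart, and the labels do not say whether replicates came from separate inductions, so the p-values measure only the spread between these libraries.

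Recovered depth was 9510847 to 18036808 reads on genes per library, at which 3 reads amounted to at most 0.537 TPM for any member. Summed TPM of 8 oocyte markers was 11346 to 13001 at 4F day 7, 29604 to 32230 at 4F day 21 and 26495 to 27300 at 8F day 21. Summed TPM of 5 trophoblast or epithelial genes was 1141 to 1659 at day 7, most of it Krt8 and Krt18 with Cdx2 at 0, against 37.7 to 137 and 26.3 to 33.9 in the day 21 groups. For 10 genes of cycling cells the sums were 426 to 444, 853 to 965 and 815 to 817 TPM. For 6 pluripotent cell markers they were 40.6 to 60.04, 218 to 334 and 118 to 159 TPM, most of it Pou5f1, which oocytes also express, with Nanog at 0 in all but 1 library. Each of these sums differed without overlap between 4F day 7 and day 21 and between 4F and 8F cells at day 21, and their part in the results was not tested. The 5 granulosa cell markers summed to at most 3.98 TPM in any library, with overlapping ranges at 4F day 7 and day 21. In such pools, fewer cells of a type and less RNA per cell cannot be told apart.

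DNA breaks are read by the kinases ATM and ATR, which act through checkpoint kinases to hold the cell cycle and mark the chromatin around the break. Double-strand breaks are then mended by homologous recombination, which copies an intact duplex, or by end joining, which ligates the ends directly, while damaged or mispaired bases are cut out by base excision and mismatch repair. Oocytes stay arrested in meiotic prophase for long periods, are removed when breaks persist, and store RNA for repair proteins that the early embryo uses.

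The 40 members together took 0.164% to 0.180% of all TPM in the 4F day 7 libraries, 0.296% to 0.320% at 4F day 21 and 0.249% to 0.258% at 8F day 21. Their median level was 26.2 and 21.5 TPM at 4F day 7, 36.4, 35.8 and 36.1 TPM at 4F day 21 and 35.2 and 36.5 TPM at 8F day 21. At day 7 Parp1 had the highest mean of the 40, at 209 ± 4.86 TPM (SD, n = 2), followed by Mdc1 at 188 ± 7.72 TPM (SD, n = 2). At 4F day 21 Rad50 led with 532 ± 27.2 TPM (SD, n = 3), and Rnf168 followed with 441 ± 22.9 TPM (SD, n = 3). In 8F cells the order of these leading genes was Rnf168 at 313 ± 6.39 TPM (SD, n = 2) and Rad50 at 292 ± 11.2 TPM (SD, n = 2), whose libraries lay close together without overlapping. At the low end stood Xrcc3, with 5.80 ± 5.49 TPM (SD, n = 2) at 4F day 7, and Tdg, with 1.09 ± 0.924 TPM (SD, n = 3) at 4F day 21 and 1.05 ± 0.470 TPM (SD, n = 2) at 8F day 21.

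**Figure D1:**
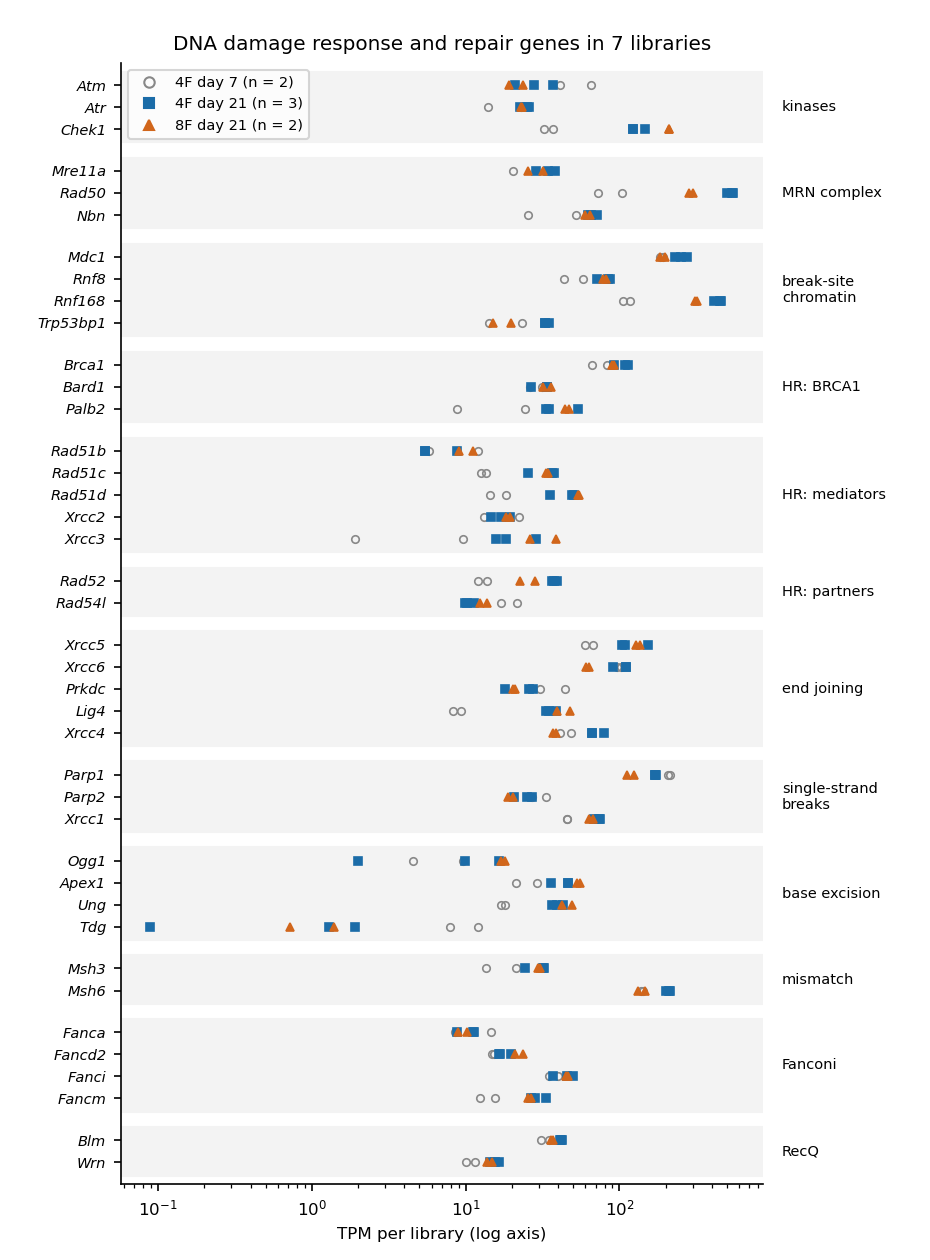
TPM of each of the 40 genes in each of the 7 libraries on a log axis, grouped by role (gray circles, 4F day 7; blue squares, 4F day 21; orange triangles, 8F day 21). Chek1, Rad50, Rnf168 and Lig4 sit well to the right of their day 7 values in all day 21 libraries, and Tdg sits to the left, between 0.0887 and 1.91 TPM.

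The first comparison asked how the members changed as 4F cells matured from day 7 to day 21. Of the 40 members, 21 rose and 3 fell at a false discovery rate of 0.05 (limma on log2(TPM + 1), Benjamini-Hochberg over 21780 genes), or 60% called. Over all genes tested 40.6% were called, 25.3% higher and 15.3% lower. The median log2 fold change was 0.54 over the members and 0.17 over all genes tested, and 31 of 40 members had a positive value against 54.9% of all genes. The members are expressed well above the filter, and among the 15242 genes with at least 5 TPM in 2 libraries, all 40 included, the median over all genes was 0.36 and 51.8% were called, against 26 members (22 higher and 4 lower), or 65% in that fit.

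The number and split of the calls depended on the scaling. It was 10 higher and 6 lower after median-of-ratios rescaling, 10 and 7 after quantile normalization and 9 and 7 when reads recovered from the TPM values were tested with voom. The members called were then 40%, 42.5% and 40%, near the 39.6%, 38.4% and 41.2% of all genes called in the same fits. Of all genes 19.3%, 20% and 15.4% were called higher, against 25%, 25% and 22.5% of the members. Those called lower were 20.4%, 18.4% and 25.8% of all genes. These scalings put the median of all genes at -0.06, 0.04 and -0.32, and 26, 23 and 28 of the 40 members lay above it, against 28 in the TPM values as deposited. Leaving out 4F day 7 replicate 2 left 15 members called, 14 higher and 1 lower, which was 37.5% against 36.2% of all genes. In every one of 17 alternative settings 9 members were called higher, namely Chek1, Rad50, Rnf168, Rad51c, Rad51d, Rad52, Lig4, Ung and Fancm. The share of all genes called in every setting was not determined, so this count has no background to be set against.

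**Figure D2:**
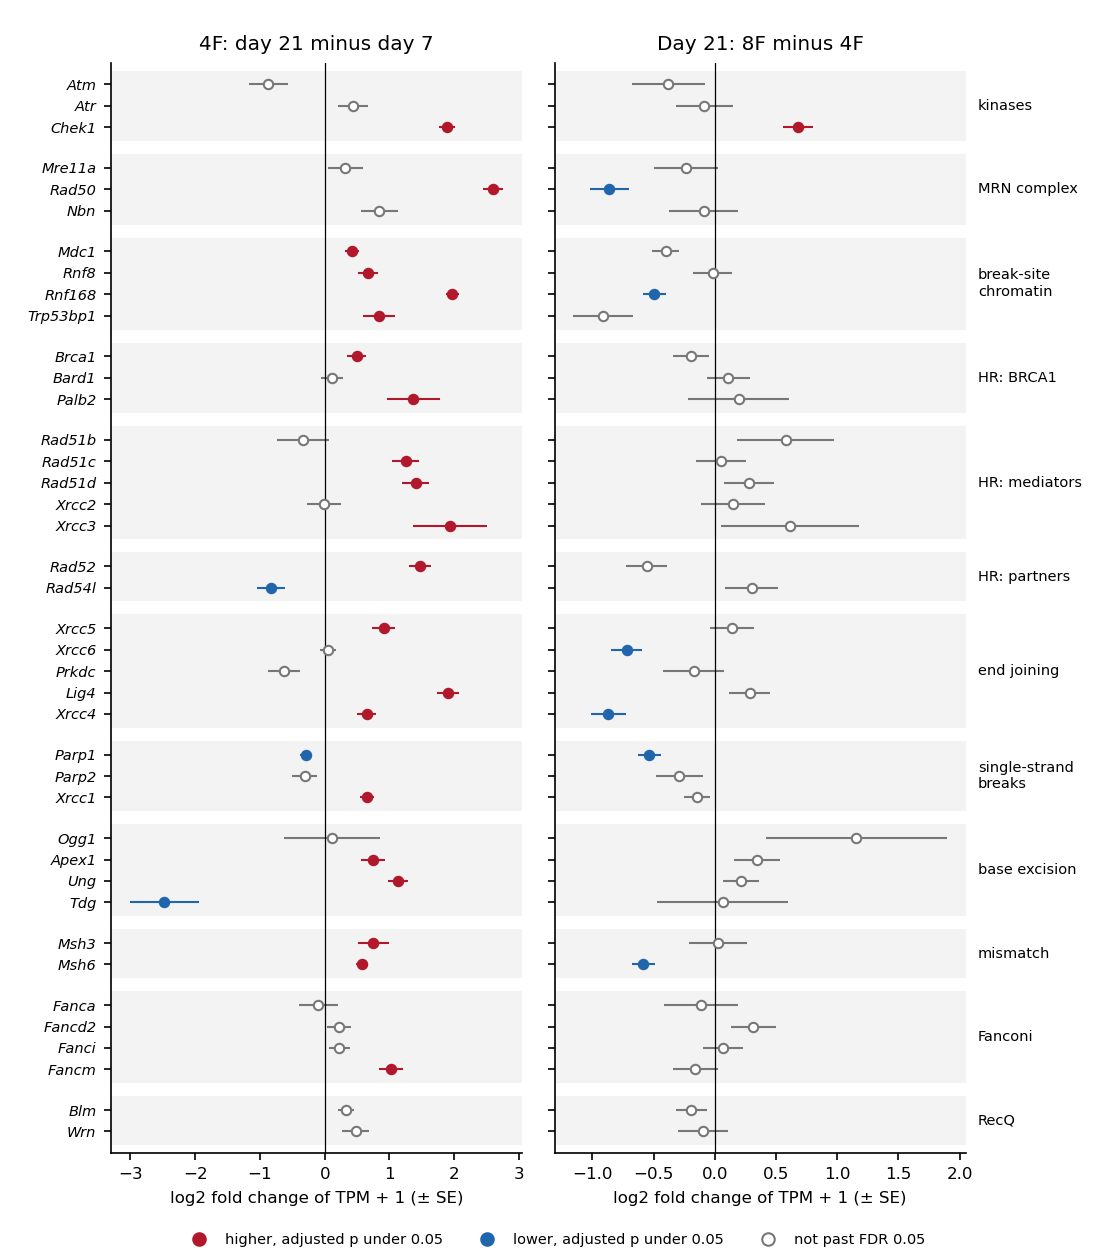
Log2 fold change of TPM + 1 with its standard error for each of the 40 genes, for 4F day 21 minus 4F day 7 (left) and 8F minus 4F at day 21 (right); filled red and blue points passed an adjusted p of 0.05, open points did not. On the left 21 points are red and 3 blue, and on the right Chek1 alone is red and 6 points are blue.

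Promoters of members with large changes are printed to show the sequence at their starts. They cover 250 bases before and 50 after the transcription start, in RefSeq's table on GRCm38.p6, where 33 of the 40 members had 37 promoters. The 4 printed are those of the 2 risers and 2 fallers with the largest change among members with an entry, written from 5′ to 3′ on the gene's strand, with matches to the searched motifs in capitals. The Rnf168 window lies at chr16:32277211-32277510 on the plus strand, Xrcc3 at chr12:111813830-111814129 on the minus strand, Tdg at chr10:82629588-82629887 on the plus strand and Rad54l at chr4:116123640-116123939 on the minus strand.
Rnf168: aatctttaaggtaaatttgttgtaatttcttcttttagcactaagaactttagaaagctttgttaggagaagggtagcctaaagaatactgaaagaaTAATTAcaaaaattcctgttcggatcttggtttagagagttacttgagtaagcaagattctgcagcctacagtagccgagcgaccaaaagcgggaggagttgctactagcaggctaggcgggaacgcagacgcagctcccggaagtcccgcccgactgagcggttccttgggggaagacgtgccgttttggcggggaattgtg
Xrcc3: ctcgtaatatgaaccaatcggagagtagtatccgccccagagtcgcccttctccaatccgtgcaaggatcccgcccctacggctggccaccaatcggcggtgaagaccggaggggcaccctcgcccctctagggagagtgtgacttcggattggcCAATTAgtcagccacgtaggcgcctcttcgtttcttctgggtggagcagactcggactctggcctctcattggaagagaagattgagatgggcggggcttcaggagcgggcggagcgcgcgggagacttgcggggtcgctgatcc
Tdg: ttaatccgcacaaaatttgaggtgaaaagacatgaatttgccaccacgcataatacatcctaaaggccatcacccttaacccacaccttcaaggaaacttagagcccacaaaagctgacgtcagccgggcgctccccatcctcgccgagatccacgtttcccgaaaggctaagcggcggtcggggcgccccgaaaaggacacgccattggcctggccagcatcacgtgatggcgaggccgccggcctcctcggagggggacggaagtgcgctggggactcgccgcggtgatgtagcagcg
Rad54l: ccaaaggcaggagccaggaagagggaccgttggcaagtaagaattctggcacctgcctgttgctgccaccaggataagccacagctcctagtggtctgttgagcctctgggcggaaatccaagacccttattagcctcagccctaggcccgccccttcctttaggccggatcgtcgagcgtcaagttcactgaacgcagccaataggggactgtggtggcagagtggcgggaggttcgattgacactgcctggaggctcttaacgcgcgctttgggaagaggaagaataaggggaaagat
In all, 4 motifs were searched on both strands, the E2F elements TTTCCCGC and TTTGGCGC and the homeodomain elements TAATTG and TAATTA, of the kind that NOBOX and LHX8 bind. The Rnf168 promoter held TAATTA at base 98, a sequence that reads the same on both strands, and the Xrcc3 promoter held TAATTG on the opposite strand at base 156. The Tdg and Rad54l promoters held none of the 4. Over the 37 member promoters, 13.5% held a homeodomain element against 12.4% of 32851 promoters in the table. An E2F element was in 16.2% of member promoters, those of Bard1, Mdc1, Msh3, Msh6, Rad51c and Xrcc6, against 1.57% of all. Member promoters were also richer in GC, with a median of 60% against 52.7%, and held a median of 24 CpG against 7. These are descriptions of letters in a window and say nothing of binding.

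Among the signaling kinases Chek1 was called higher, and Atm and Atr were not called. Chek1 encodes CHK1, the kinase that ATR activates to stop the cell cycle, and lies at chr9:36708482-36727065 on mm10. It measured 32.4 and 36.9 TPM at 4F day 7, 147, 123 and 123 TPM at 4F day 21 and 210.3 and 209 TPM at 8F day 21. All day 21 libraries lay above both day 7 libraries, and the log2 fold change from day 7 to day 21 was 1.89 ± 0.12, adjusted p = 0.000121. Atm, whose product senses double-strand breaks, measured 65.2 and 41.2 TPM at day 7 and 27.9, 37.1 and 20.9 TPM at day 21, and its log2 fold change missed the threshold (-0.87 ± 0.30, adjusted p = 0.0561). The ranges did not overlap, and Atm was called lower in 5 of 17 settings. Atr, whose product senses single-stranded DNA at stalled forks, measured 22.9 and 13.9 TPM and 25.1, 26.0 and 22.6 TPM, ranges that overlapped (0.43 ± 0.23, adjusted p = 0.187).

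The 3 subunits of the MRE11-RAD50-NBS1 complex, which binds and trims broken ends and recruits ATM, held 1 gene called higher and 2 with no call. Rad50, the ATPase that tethers the ends, at chr11:53649519-53707319, measured 104 and 72.5 TPM at 4F day 7 and 543, 501 and 551 TPM at 4F day 21. Its log2 fold change (2.60 ± 0.16, adjusted p = 9.95e-05) was the highest of the 40 in the TPM values as deposited. Mre11a, the nuclease, measured 34.9 and 20.3 TPM and 38.1, 28.6 and 34.5 TPM, and these ranges overlapped (0.32 ± 0.26, adjusted p = 0.378). Nbn, which links the complex to ATM, measured 25.3 and 52.4 TPM and 65.1, 62.1 and 71.4 TPM and did not pass (0.84 ± 0.28, adjusted p = 0.0539), its day 7 libraries standing far apart. Within each library the ratio of Rad50 to Mre11a TPM, which no rescaling of a library can change, was 2.98 and 3.57 at 4F day 7, 14.2, 17.5 and 16.0 at 4F day 21 and 11.2 and 9.47 at 8F day 21. Such pairs of partners were chosen after the values were seen, and they are given with no test.

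All 4 members of the chromatin response at breaks were called higher at day 21, by unequal amounts. Rnf168, a ubiquitin ligase that marks histone H2A beside breaks, at chr16:32277459-32301434, rose from 106 and 117 TPM to 457, 452 and 415 TPM, a log2 fold change of 1.97 ± 0.10, adjusted p = 6.07e-05. Rnf8, the ligase that acts before it, went from 57.9 and 43.6 TPM to 84.1, 71.9 and 86.8 TPM (0.67 ± 0.16, adjusted p = 0.0148), with 1542 of its exon bases shared with the overlapping gene Gm28043. The ratio of Rnf168 to Rnf8 TPM was 1.83 and 2.69 at day 7 and 5.43, 6.28 and 4.78 at 4F day 21, so the later ligase gained on the earlier one in each library. Mdc1, the scaffold that binds phosphorylated H2AX, went from 182 and 193 TPM to 274, 230.0 and 251 TPM (0.42 ± 0.11, adjusted p = 0.0217), but its sign turned to -0.19 after quantile normalization and -0.13 with voom. Trp53bp1 encodes 53BP1, which shields ends from trimming, and went from 23.3 and 14.2 TPM to 34.6, 33.0 and 32.6 TPM (0.84 ± 0.24, adjusted p = 0.0322). Of its exon bases 2130 are shared with Tubgcp4, and the call was lost when any single library other than 4F day 7 replicate 1 was left out (adjusted p up to 0.106). The Rnf8 call was lost without 4F day 7 replicate 2 (adjusted p = 0.0563). The Mdc1 call was lost without 4F day 7 replicate 1, 4F day 21 replicate 1 or 4F day 21 replicate 3, with adjusted p up to 0.0827.

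Of the BRCA1 group, which steers breaks into recombination, Brca1 and Palb2 were called higher and Bard1 was not called. Brca1 went from 82.7 and 66.2 TPM at 4F day 7 to 114, 91.9 and 109 TPM at day 21 (0.49 ± 0.15, adjusted p = 0.0352), and its sign turned to -0.12 after quantile normalization and -0.03 with voom. Bard1, the partner that forms a ubiquitin ligase with BRCA1, measured 31.2 and 26.4 TPM and 33.7, 33.6 and 26.8 TPM, with no call (0.12 ± 0.17, adjusted p = 0.627). Palb2, which joins BRCA1 to BRCA2, went from 24.4 and 8.76 TPM to 33.5, 34.6 and 53.9 TPM (1.37 ± 0.42, adjusted p = 0.0381). Both calls depended on single libraries, and without 4F day 7 replicate 2 the log2 fold change of Palb2 was 0.68 and that of Brca1 0.34. Both were also lost without 4F day 21 replicate 1 or 3 or either 8F library, which enters only through the shared spread, and Palb2 without 4F day 21 replicate 2 (adjusted p up to 0.159 for Palb2 and 0.147 for Brca1).

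The 5 members Rad51b, Rad51c, Rad51d, Xrcc2 and Xrcc3, whose products form mediator complexes of homologous recombination, split into risers and genes with no call. Rad51c, which belongs to both of these complexes, measured 13.6 and 12.7 TPM at day 7 and 37.3, 25.5 and 36.2 TPM at day 21, a log2 fold change of 1.25 ± 0.21, adjusted p = 0.0037. Rad51d measured 14.4 and 18.3 TPM and 35.3, 50.9 and 49.4 TPM (1.40 ± 0.20, adjusted p = 0.00226), and for both genes every day 21 library was above every day 7 library. Xrcc3, which pairs with RAD51C, rose from 9.68 and 1.92 TPM to 15.8, 18.4 and 28.9 TPM (1.94 ± 0.57, adjusted p = 0.0336). Its call held without 4F day 7 replicate 1 and was lost when any other single library was left out, with log2 fold changes of 1.00 to 2.87 and adjusted p up to 0.136. Rad51b measured 12.1 and 5.76 TPM and 5.45, 8.82 and 5.46 TPM and Xrcc2 22.1 and 13.2 TPM and 19.5, 14.7 and 17.1 TPM, overlapping ranges with no call (-0.34 ± 0.40, adjusted p = 0.536 for Rad51b and -0.01 ± 0.26, adjusted p = 0.982 for Xrcc2). Rad51b changed sign without 4F day 7 replicate 1, at 0.14, and Xrcc2 without 4F day 7 replicate 1, at 0.34, and without 4F day 21 replicate 2, at 0.09.

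Rad52 and Rad54l, whose products act in later steps of recombination, changed in opposite directions. Rad52, which anneals single strands, measured 13.8 and 12.1 TPM at day 7 and 36.5, 37.3 and 39.4 TPM at day 21, a log2 fold change of 1.47 ± 0.17, adjusted p = 0.000849. Rad54l, a motor that helps a strand invade its template, fell from 17.1 and 21.7 TPM to 11.3, 9.93 and 10.2 TPM (-0.82 ± 0.22, adjusted p = 0.0236). The ratio of Rad52 to Rad54l TPM was 0.806 and 0.558 at 4F day 7 and 3.23, 3.76 and 3.87 at 4F day 21, the groups standing far apart. Of the exon bases of Rad54l, 1184 are shared with Lrrc41 on the opposite strand, and without 4F day 7 replicate 2 its adjusted p was 0.0760.

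Of the 5 genes of non-homologous end joining, 3 were called higher and none lower. Lig4, the ligase that seals the ends, at chr8:9969049-9977686, measured 8.28 and 9.31 TPM at 4F day 7 and 38.6, 33.1 and 34.9 TPM at 4F day 21, a log2 fold change of 1.90 ± 0.17, adjusted p = 0.000328. Xrcc4, its obligate partner, went from 48.6 and 40.8 TPM to 78.8, 66.5 and 66.4 TPM (0.65 ± 0.14, adjusted p = 0.0114). Of the Ku subunits that cap the ends, Xrcc5 (Ku80) rose from 66.9 and 59.7 TPM to 152, 109 and 103 TPM (0.91 ± 0.18, adjusted p = 0.00782), while Xrcc6 (Ku70) measured 103 and 96.3 TPM and 90.3, 109.5 and 111 TPM, which overlapped (0.05 ± 0.13, adjusted p = 0.793). Xrcc6 was called lower after quantile normalization, at -0.56, and with voom, at -0.50. Prkdc, the catalytic subunit of the DNA-dependent protein kinase that Ku recruits, measured 44.3 and 30.4 TPM and 27.4, 17.96 and 25.7 TPM, and its lower values did not pass (-0.63 ± 0.25, adjusted p = 0.0861). Without 4F day 7 replicate 2 the adjusted p of Xrcc5 was 0.0593.

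In single-strand break repair Xrcc1 was called higher, Parp1 lower and Parp2 not at all. Parp1, the abundant ADP-ribose polymerase that senses nicks, measured 213 and 206 TPM at day 7 and 174, 170.2 and 170.4 TPM at day 21, and fell by a small amount just past the threshold (-0.29 ± 0.09, adjusted p = 0.0495). That call was lost without any one of the 5 4F libraries, with adjusted p up to 0.0995, but Parp1 was lower in all 17 settings, at -0.88 to -0.26. Parp2 measured 27.2 and 33.3 TPM and 25.0, 27.2 and 20.5 TPM (-0.31 ± 0.19, adjusted p = 0.238). Xrcc1, the scaffold that gathers the repair enzymes, rose from 45.5 and 45.5 TPM to 68.6, 74.5 and 73.2 TPM (0.65 ± 0.11, adjusted p = 0.00354).

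Base excision repair held both risers and the member with the steepest fall. Ung, the glycosylase that removes uracil, measured 17.99 and 16.9 TPM at day 7 and 36.4, 39.1 and 43.0 TPM at day 21, a log2 fold change of 1.13 ± 0.15, adjusted p = 0.00149. Apex1, the nuclease that cuts at abasic sites, went from 29.1 and 21.3 TPM to 46.0, 46.1 and 36.0 TPM (0.74 ± 0.19, adjusted p = 0.0202). Of its 1422 exon bases 877 are shared with Pip4p1 on the opposite strand, so its reads cannot be told from those of Pip4p1 where the counting did not use strand, and the call was lost without 4F day 7 replicate 2, 4F day 21 replicates 1 or 2 or either 8F library (adjusted p up to 0.0883). Tdg, the glycosylase that removes thymine from mispairs and oxidized methylcytosines, at chr10:82629828-82650799, measured 12.0 and 7.89 TPM at day 7, 1.91, 1.29 and 0.0887 TPM at 4F day 21 and 0.718 and 1.38 TPM at 8F day 21. It fell by 2.48 on the log2 scale (± 0.54, adjusted p = 0.0109), and 4F day 21 replicate 3 lay under the 0.133 TPM that 3 reads of Tdg were worth there. Tdg has 4 pseudogenes with at least 95% identity, the longest match being 2968 bases at 98.7% with Tdg-ps, so uniquely mapped reads may miss part of it, and without 4F day 7 replicate 1 its adjusted p was 0.0647. Ogg1, the glycosylase for oxidized guanine, measured 4.54 and 9.54 TPM and 16.4, 2.00 and 9.98 TPM, too scattered for a direction (0.12 ± 0.74, adjusted p = 0.92).

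Msh6 and Msh3, whose products find small and larger mismatches, were both called higher. Msh6 measured 137 and 143 TPM at day 7 and 211, 202 and 214 TPM at day 21 (0.58 ± 0.10, adjusted p = 0.00373), though its value was -0.06 after quantile normalization. Msh3 went from 21.2 and 13.6 TPM to 32.4, 24.4 and 32.0 TPM (0.75 ± 0.24, adjusted p = 0.0424). Its call was lost without 4F day 7 replicate 2, 4F day 21 replicates 1 or 3 or either 8F library, with adjusted p up to 0.166.

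Of the Fanconi anemia genes, whose products unhook crosslinked strands, Fancm alone was called. Fancm, the translocase that anchors the pathway to DNA, measured 12.3 and 15.6 TPM at day 7 and 33.3, 28.2 and 26.6 TPM at day 21 (1.02 ± 0.19, adjusted p = 0.0054). The paired clamp genes Fancd2 and Fanci measured 14.8 and 15.3 against 19.7, 16.5 and 16.7 TPM and 39.9 and 34.8 against 45.5, 36.9 and 49.6 TPM, with adjusted p of 0.397 and 0.320. Fanca, of the core complex, had log2 fold change -0.10 ± 0.30, adjusted p = 0.825. The RecQ helicases Blm and Wrn, which unwind joined and stalled structures, had values of 0.33 ± 0.13, adjusted p = 0.0787 and 0.48 ± 0.20, adjusted p = 0.11, with no call, and the sign of both turned under voom, to -0.20 and -0.04.

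**Figure D3:**
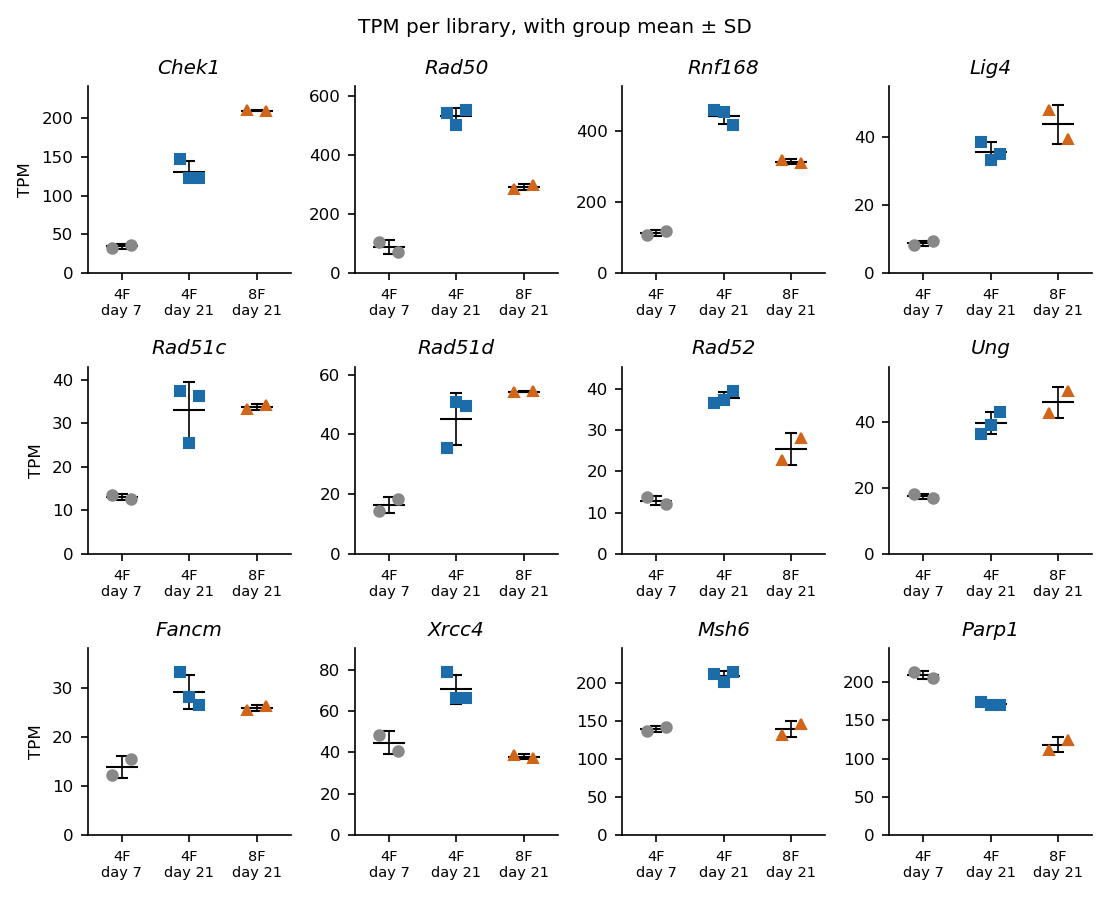
TPM in each library of 12 genes, with the group mean and SD as black bars (n = 2, 3 and 2). The 9 genes called in every setting between 4F day 7 and day 21 and 3 of those lower in 8F cells are shown; Chek1 rises across the 3 groups, Rad50, Rnf168, Xrcc4 and Msh6 are highest at 4F day 21, and Parp1 is lowest at 8F day 21.

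The second comparison asked whether the additional 4 factors altered the members at day 21. It shares the 4F day 21 libraries with the first, so the values of a gene in the 2 comparisons are not independent. At day 21 8F cells had 7 members called against 4F cells, 1 higher and 6 lower, 17.5% of the 40. Over all genes tested 8.37% were called, 3.95% higher and 4.41% lower. The median over the members was -0.09 and that over all genes 0.06. Among the 15242 genes with at least 5 TPM in 2 libraries, 11% were called, 4.3% higher and 6.7% lower. In that fit the members again had 1 higher and 6 lower. The calls depended on the model and on single libraries. With limma's eBayes without a trend 0 members were called, though 9 of the 40 had an unadjusted p under 0.05 and 994 of all genes were called, while voom called 8 members against 10.5% of all genes, and leaving out single libraries left 3, 2 and 1 members called without 4F day 21 replicates 1, 2 and 3 (against 4.3%, 4.2% and 4.7% of all genes) and 0 without either 8F library (against 1.4% and 1.6%), where 7 and 10 had an unadjusted p under 0.05. The 8F values were written with up to 17 decimals and the 4F values with up to 9, a difference that the labels do not explain. Per the study, the 8F cells are a separate line that also carries an Npm2-mCherry reporter. The study used 2 sequencing instruments with unlike read lengths and does not say which libraries went on which. Factor set, cell line and any difference in handling therefore cannot be told apart.

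Chek1 was the member that stood higher in 8F cells, at 210.3 and 209 TPM against 147, 123 and 123 TPM, with no overlap and a log2 fold change of 0.68 ± 0.12, adjusted p = 0.0247. The other calls were lower. Rad50 measured 284 and 299.9 TPM in 8F cells against 543, 501 and 551 TPM in 4F cells (-0.86 ± 0.16, adjusted p = 0.0256). Rnf168 measured 317 and 308 TPM against 457, 452 and 415 TPM (-0.49 ± 0.10, adjusted p = 0.0308), and for both genes every 8F library was above every day 7 library. Xrcc4 measured 38.7 and 37.3 TPM against 78.8, 66.5 and 66.4 TPM (-0.87 ± 0.14, adjusted p = 0.0188), and Xrcc6 measured 60.8 and 63.5 TPM against 90.3, 109.5 and 111 TPM (-0.72 ± 0.13, adjusted p = 0.0225). Both end-joining genes were thus lower while their partners were not called, Lig4 with 0.28 ± 0.17, adjusted p = 0.393 and Xrcc5 with 0.14 ± 0.18, adjusted p = 0.729. Parp1 measured 111 and 125 TPM against 174, 170.2 and 170.4 TPM (-0.54 ± 0.09, adjusted p = 0.0226), and Msh6 132 and 147 TPM against 211, 202 and 214 TPM (-0.58 ± 0.10, adjusted p = 0.0188). All 7 calls were lost without either 8F library. Leaving out any 4F day 21 library also ended the calls of Rad50, Rnf168 and Parp1, leaving out replicate 2 or 3 those of Chek1 and Xrcc6, and leaving out replicate 1 or 3 that of Msh6. The highest adjusted p without a single library ran from 0.126 for Msh6 to 0.231 for Rad50.

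Trp53bp1 had the largest point estimate downward, 15.1 and 19.6 TPM against 34.6, 33.0 and 32.6 TPM, without passing (-0.91 ± 0.24, adjusted p = 0.0722). Mdc1, at 183 and 197 against 274, 230.0 and 251 TPM, and Rad52, at 22.7 and 28.2 against 36.5, 37.3 and 39.4 TPM, were also below every 4F library without a call (-0.40 ± 0.11, adjusted p = 0.076 and -0.56 ± 0.17, adjusted p = 0.104). For the 28 remaining members the log2 differences lay between -0.38, for Atm, and 1.16, for Ogg1. The 95% interval for Ogg1 ran from -0.62 to 2.93, so neither a fall nor a large rise could be told from these libraries.

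**Figure D4:**
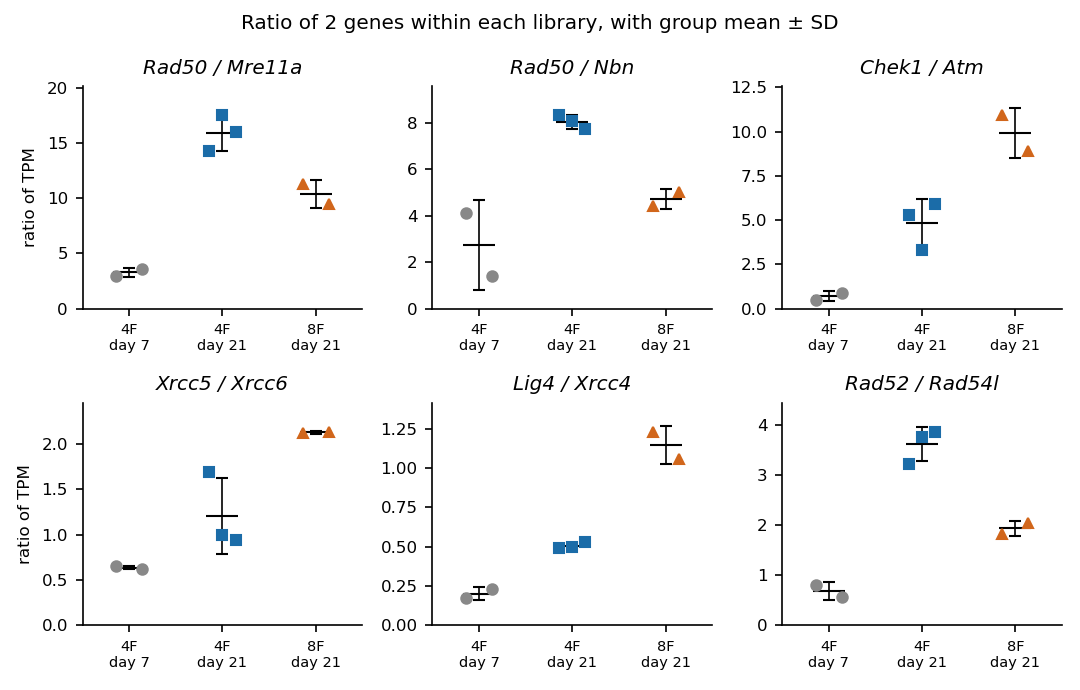
Ratio of the TPM of 2 genes within each library, for 6 pairs that act in the same complex or pathway, with group mean and SD (n = 2, 3 and 2). Rad50 to Mre11a is 2.98 and 3.57 at 4F day 7 and 14.2 to 17.5 at 4F day 21; Lig4 to Xrcc4 and Xrcc5 to Xrcc6 are highest in the 8F libraries.

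Ratios within a library also set partners apart. Lig4 to Xrcc4 TPM was 0.170 and 0.228 at 4F day 7, 0.490, 0.498 and 0.526 at 4F day 21 and 1.23 and 1.06 at 8F day 21. The 3 groups did not overlap. Xrcc5 to Xrcc6 TPM was 0.649 and 0.620, then 1.69, 0.993 and 0.935, then 2.12 and 2.14, and Chek1 to Atm was 0.497 and 0.894, then 5.26, 3.32 and 5.90, then 10.9 and 8.93. By contrast Parp1 to Parp2, Msh6 to Msh3 and Fancd2 to Fanci overlapped between 4F day 7 and day 21, with Fancd2 to Fanci at 0.370 and 0.439 against 0.434, 0.447 and 0.336. At day 21 the pairs named in this paragraph differed between 8F and 4F cells without overlap, but other pairs looked at did not. Brca1 to Bard1 was 2.90 and 2.51 in 8F cells against 3.38, 2.73 and 4.08. Rad51d to Rad51b was 4.82 and 6.02 against 6.48, 5.77 and 9.06. The share of all gene pairs that differ without overlap was not determined. Fancd2 to Fanci was higher in 8F cells, at 0.460 and 0.509. Msh6 to Msh3 was lower, at 4.48 and 4.85 against 6.53, 8.29 and 6.70. Parp1 to Parp2 was lower by little, at 5.90 and 6.19 against 6.95, 6.27 and 8.31.

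Against 4F day 7, 8F day 21 cells had 19 members called, 15 higher and 4 lower, 47.5% of the 40. Over all genes tested 37.2% were called, 24.2% higher and 13% lower. The 4 lower members were Atm (-1.25 ± 0.33, adjusted p = 0.0242), Xrcc6 (-0.67 ± 0.14, adjusted p = 0.0104), Parp1 (-0.82 ± 0.10, adjusted p = 0.00161) and Tdg (-2.41 ± 0.59, adjusted p = 0.0191). This comparison shares its day 7 libraries with the first and its 8F libraries with the second. Chek1 had the highest value, with 2.57 ± 0.14, adjusted p = 0.00013, and leaving out either 8F library left 9 members called, 22.5% against 19.4% and 18.8% of all genes. The split was 11 higher and 8 lower after median-of-ratios rescaling, 10 and 9 after quantile normalization and 10 and 10 with voom. In those fits 36.6%, 37.3% and 37.7% of all genes were called and 18.9%, 19% and 17.8% were called higher. Among the 15242 genes with at least 5 TPM in 2 libraries, 47.1% were called, 32.7% higher and 14.5% lower. In that fit 16 members were higher and 5 lower.

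A further 102 genes of repair and the checkpoint, all tested, gave the setting for these members. From 4F day 7 to day 21, 46 were called higher and 1 lower, 46.1% of the list against 40.6% of all genes, with a median of 0.64. In the fit of genes with at least 5 TPM in 2 libraries, 48 of the 101 tested were called higher and 2 lower. There 51.8% of all genes were called, 35.7% higher and 16.1% lower. The split was 31 and 3 after median-of-ratios rescaling, against 19.3% of all genes higher and 20.4% lower. It was 33 and 3 after quantile normalization, against 20% and 18.4% of all genes. With voom it was 21 and 13, against 15.4% and 25.8% of all genes, where 101 of the list were tested and their median was 0.11. The highest of those that met the rule for naming were Neil3, a glycosylase for oxidized bases, at 2.71 and 2.03 TPM and then 43.5, 34.9 and 26.2 TPM (3.39 ± 0.26, adjusted p = 0.000193), Mad2l2, a subunit of the shieldin complex and of polymerase zeta (3.14 ± 0.48, adjusted p = 0.00278), and Nthl1, a glycosylase for oxidized pyrimidines (2.52 ± 0.21, adjusted p = 0.000253). The gene that fell was Polq, the polymerase of alternative end joining, from 20.2 and 22.1 TPM to 10.5, 6.68 and 6.57 TPM (-1.34 ± 0.29, adjusted p = 0.0113). Between 8F and 4F cells at day 21, 6 of the 102 were called, 5.9% against 8.37% of all genes, with the helicase gene Recql5 higher (1.07 ± 0.22, adjusted p = 0.0341) and Lig1, Xpc and Babam1 among the 5 lower, the ligase gene Lig1 by the most (-0.93 ± 0.16, adjusted p = 0.023). Xpc, the damage sensor of nucleotide excision repair, had -0.67 ± 0.13, adjusted p = 0.0289, and Babam1, of the BRCA1-A complex, -0.63 ± 0.14, adjusted p = 0.0466. These calls were lost in limma without either 8F library, which leaves that group with 1 library. Without 4F day 21 replicates 1, 2 and 3, 0, 0 and 1 of the 102 were called, against 4.3%, 4.2% and 4.7% of all genes. With eBayes without trend and with the replicate block 0 were called, against 4.6% and 0.8% of all genes. In the full set voom called 9 of the 101 tested higher and 5 lower, against 6.6% and 3.9% of all genes.

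A separate list held 19 genes that p53 activates after damage, of which 18 were tested and Fas was listed at 0 in every library. From day 7 to day 21, 2 were called higher and 5 lower, 38.9% of those tested against 40.6% of all genes (25.3% higher and 15.3% lower), with a median of -0.62. With voom 1 was called higher and 9 lower, where 15.4% of all genes were higher and 25.8% lower. Mdm2, the ligase that degrades p53, rose from 65.4 and 69.6 TPM to 134, 149 and 179 TPM (1.17 ± 0.14, adjusted p = 0.00106), and Ppm1d, a phosphatase that silences damage signals, rose too (0.71 ± 0.23, adjusted p = 0.0475), a call made in 3 of 17 alternative settings. Ccng1, the cyclin G1 gene, fell from 136 and 119 TPM to 49.8, 26.3 and 50.9 TPM (-1.62 ± 0.34, adjusted p = 0.00971), and the kinase gene Plk3 fell (-1.57 ± 0.44, adjusted p = 0.0286). The receptor gene Eda2r measured 5.67 and 5.69 TPM at day 7 and was listed at 0 in the 3 4F day 21 libraries. Cdkn1a, which encodes the cell cycle inhibitor p21 and is named here after its values were seen, measured 26.9 and 49.3 TPM at day 7, 9.52, 11.3 and 15.9 TPM at 4F day 21 and 9.71 and 5.55 TPM at 8F day 21 (-1.53 ± 0.38, adjusted p = 0.0181 from day 7 to day 21 of 4F). Between 8F and 4F cells at day 21 Sesn2, a stress-induced regulator of growth signaling, was the 1 gene called, at 70.3 and 69.0 TPM against 12.8, 3.31 and 12.5 TPM (2.93 ± 0.52, adjusted p = 0.0239), and it was not called without either 8F library.

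**Figure D5:**
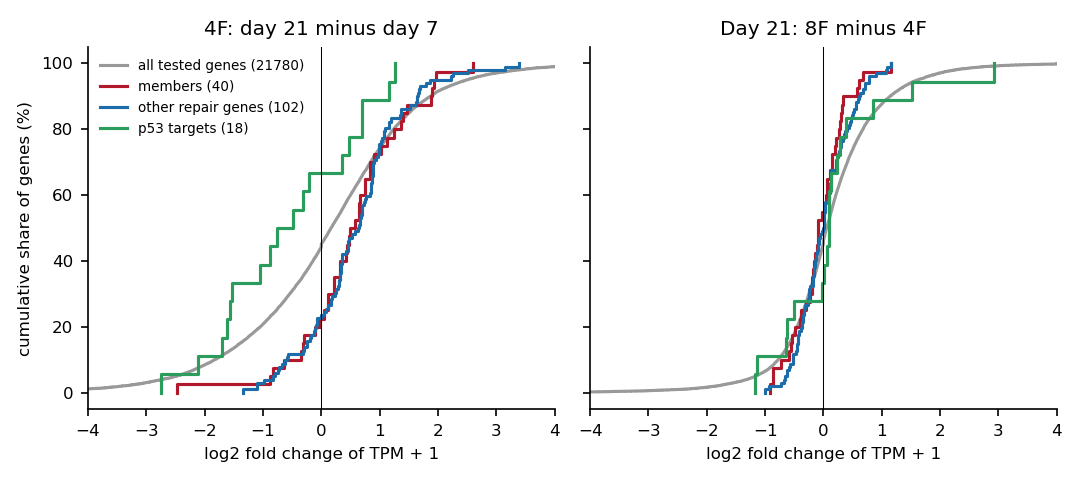
Cumulative share of genes (%) against log2 fold change of TPM + 1 for the 40 members, the 102 other repair genes, the 18 tested p53 targets and all 21780 genes tested. From 4F day 7 to day 21 (left) the repair lists have medians of 0.54 and 0.64 against 0.17, and the p53 targets -0.62; between 8F and 4F (right) the members' median is -0.09.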

How the data were processed

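Reads of total RNA (SMART-seq Stranded Kit) were trimmed with Trim Galore, aligned to mm10 with HISAT2 and counted per gene with featureCounts, in pairs and without strand, with a read on overlapping genes divided between them, per the study's methods and the submitters' processing notes. The authors deposited TPM values (counts scaled to gene length and library total) for 7 libraries in 1 table. Since TPM are not counts, values were tested on a log scale in place of the count test used in the study.

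The 21780 of 55364 genes that reached 1 TPM in 2 or more libraries entered a fit of log2(TPM + 1) by limma (3.58.1, R 4.3.3) in 3 groups with a shared, intensity-dependent spread (eBayes with trend). Tests were two-sided, p-values were Benjamini-Hochberg adjusted over all genes tested, and the false discovery rate was 0.05. Fold changes on this scale understate the change of low genes. Values are given as log2 fold change ± standard error.

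Reads were recovered from the steps of TPM times exon length (GENCODE M21, 98.1% of genes matched by versioned ID), giving 9510847 to 18036808 reads per library. They were not rounded to whole reads, and 82.1% to 86.2% of low values lay at whole reads. The study counted reads with a later GENCODE release, so these depths, the 3-read levels, the voom fit and the exon overlaps rest on lengths that may differ for some genes. Between replicate libraries these reads differed beyond sampling noise, with chi-square per degree of freedom of 9.77 to 35.4, so every library was counted. The 3-read level covers counting error only.

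Of the 40 members 19 share exon bases with another gene in GENCODE M21, 7 of them over 10% of their length. Near-identical copies were sought with blastn 2.17.0. Gene coordinates are from GENCODE M21 on mm10 and promoters from RefSeq on GRCm38.p6.

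The members and lists were chosen with earlier results of these data known. All members are named; of the other repair genes and p53 targets, the rule named up to 3 in each direction per comparison with the largest change among called genes whose groups did not overlap and whose higher mean was at least 5 TPM, Cdkn1a excepted. The alternatives were 2 other pseudocounts, 2 other filters, 2 rescalings, eBayes without trend, a fit of only 2 groups, a replicate block, voom on recovered reads and leaving out each library. Deviations of same-numbered libraries from their group means correlated at -0.0369 to 0.0111. In groups of 2 such deviations mirror each other, and these values cannot show whether same-numbered libraries were prepared together. Certain genes are not reported here.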

Additional observations from a re-analysis of the deposited data

How the results depend on the processing

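Of the 3 counts of called members, that of 4F day 21 against day 7 was 24 and lay between 15 and 23 with single libraries left out. The count for 8F against 4F at day 21 was 7 and lay between 0 and 8, and that for 8F day 21 against 4F day 7 was 19 and lay between 9 and 19. With eBayes without trend the count for 8F against 4F was 0, and the other 2 moved by under 1.5 times. In that fit 38.8%, 4.6% and 35% of all genes were called, in the order of the counts above. With a replicate block the counts were 15, 0 and 18, against 33.2%, 0.8% and 32.3% of all genes. The labels do not say whether same-numbered libraries belong together. In the fit reported 40.6%, 8.4% and 37.2% of all genes were called. For 8F against 4F the share was 4.3%, 4.2% and 4.7% without 4F day 21 replicates 1, 2 and 3. In these alternative fits the share of all genes called thus fell along with the count of members. The cause was not tested. In the fits given earlier that left a group with 1 library, that library was assumed to vary like the other groups. The median of the members for 8F against 4F turned with voom, to 0.063. For 8F day 21 against 4F day 7 the sign of 12 members turned in at least 1 setting, and 1 of them, Xrcc1, had been called (0.51 in the fit reported and -0.011 after quantile normalization). The genes whose sign turned in the other 2 comparisons are listed next, and of these Mdc1, Brca1 and Msh6 had been called, for 4F day 21 against day 7. The sign for 4F day 21 against day 7 turned after median-of-ratios rescaling for Mre11a (-0.0099), Bard1 (-0.21), Xrcc6 (-0.29), Ogg1 (-0.18), Fancd2 (-0.11), Fanci (-0.11) and Blm (-0.0023). It turned after quantile normalization for Mre11a (-0.070), Mdc1 (-0.19), Brca1 (-0.12), Bard1 (-0.27), Xrcc6 (-0.56), Msh6 (-0.056), Fanci (-0.25) and Blm (-0.10). It turned with the replicate block for Xrcc6 (-0.0026), Ogg1 (-0.082) and Fanca (0.0089). It turned with voom for Atr (-0.051), Mre11a (-0.17), Mdc1 (-0.13), Brca1 (-0.026), Bard1 (-0.41), Xrcc6 (-0.50), Ogg1 (-0.49), Fancd2 (-0.32), Fanci (-0.31), Blm (-0.20) and Wrn (-0.039). Leaving out single libraries turned it for Mre11a (-0.057 to 0.70), Bard1 (-0.00022 to 0.23), Rad51b (-0.82 to 0.14), Xrcc2 (-0.36 to 0.34), Xrcc6 (-0.0026 to 0.14), Ogg1 (-0.41 to 0.85) and Fanca (-0.45 to 0.26). The sign for 8F against 4F turned with a pseudocount of 5 for Tdg (-0.00078). It turned after quantile normalization for Rnf8 (0.034) and Tdg (-0.42). It turned with the replicate block for Rnf8 (0.035) and Tdg (-0.35). It turned with voom for Atr (0.063), Nbn (0.063), Rnf8 (0.14), Xrcc1 (0.0096), Fanca (0.025) and Wrn (0.046). Leaving out single libraries turned it for Rnf8 (-0.099 to 0.035), Rad51c (-0.12 to 0.15), Tdg (-0.35 to 0.36), Msh3 (-0.10 to 0.093) and Fanci (-0.054 to 0.15).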
